A study of Mus musculus with 4 samples.

Results

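Collagen chains are the gene products described here: the genes whose platform symbol reads Col, a number, the letter a and a number. The rule reads symbols and no measured value, but the family was chosen for description with earlier results of these data known. It gave 42 genes with 82 probe sets, of 18193 genes with 1 symbol per probe set and of 45101 probe sets in all. They were sorted into 11 fibrillar, 9 network, 5 microfibrillar and 9 FACIT chains (fibril-associated collagens with interrupted triple helices), with 8 chains outside these classes. The cells were mouse embryonic fibroblasts (MEFs), grown from the trypsin-dispersed torso of embryos of 13.5 or 14.5 days without head and red organs, and kept at 6% oxygen up to passage 2 to 3. The Pf1 KO group (Pf1 -/-) was lines 7706-2 and 7706-4 and the Pf1 WT group (Pf+/+) lines 7706-5 and 7706-6, called lines 2, 4, 5 and 6 below, with 1 Affymetrix array each. Phf12 is the gene of Pf1, which binds chromatin and works with Sin3 corepressors. The labels give neither strain nor targeted exons, and do not say whether each line came from its own embryo. The p-values therefore reflect only how far the lines differ, which may be technical.

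A collagen molecule is a triple helix of chains that may be alike or different, folded and hydroxylated in the endoplasmic reticulum and secreted. Fibrillar collagens build the banded fibrils that fibroblasts deposit, and network collagens build the sheets of basement membranes. Type VI forms beaded microfibrils close to the cell surface, and FACITs sit on the surface of fibrils.

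Values are log2 signals relative to the median of the 4 lines, averaged over the probe sets of a gene. The table holds no signal level, so chains cannot be ranked by abundance, an absent transcript cannot be told from a constant one, and the presence of fibroblast or other markers could not be checked. With the median set to 0, the middle 2 lines of a probe set mirror each other around 0. The 4 arrays had medians between -0.00871 and 0.00455 over all probe sets. The first of 2 Phf12 probe sets stood at -0.37 and -0.41 in KO lines 2 and 4, against 0.56 and 0.37 in WT lines 5 and 6, a difference of -0.86 ± 0.109 SE (limma adjusted p = 0.0213 over all probe sets), while the other overlapped between the genotypes. Averaged over both, Phf12 gave -0.42 ± 0.0934 SE and did not pass (limma adjusted p = 0.0504 over all genes). Where the probe sets lie relative to the deletion is unknown, so they are a weak check of the labels. WT line 6 stood apart from the other lines in sex-linked transcripts, with Xist, the X-inactivation RNA, at 6.39, against -0.02, -0.02 and -0.01 in lines 2, 4 and 5. Y-linked Eif2s3y stood at -3.05 in line 6, against -0.001, 0.001 and 0.11 in lines 2, 4 and 5. Y-linked Uty (-2.15) and Kdm5d (-1.63) were also lowest in line 6. By these transcripts sex was not balanced between the genotypes, and its part in the differences was not tested.

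Collagen transcripts fell more often than they rose, with most decreases among fibrillar and microfibrillar chains. The chains of types I, III, V (Col5a1 only) and VI (Col6a1, Col6a2 and Col6a3), the FACITs Col12a1 and Col16a1, the minor fibrillar chain Col24a1 and the network chain Col8a2 fell in KO lines. Col2a1, the cartilage fibril chain, and Col7a1, the chain of the anchoring fibrils of skin, rose. The type IV chains of basement membranes did not pass the test. In all, 11 of 42 chains fell (26.2%) and 2 rose (4.76%), at a limma adjusted p under 0.05 over all genes. Over all genes 6.95% fell and 5.21% rose, so the share of chains that rose was no higher than that of all genes. At an unadjusted p under 0.05, 15 chains were lower and 5 higher, and over all genes 15.2% were lower and 14.3% higher, the shares against which the unadjusted counts below are to be read. Both KO lines lay below both WT lines for 20 chains and above them for 9 (47.6% and 21.4%, against 29.5% and 28.7% of all genes). The median difference, KO minus WT on the log2 scale, was -0.08 over the 42 chains and -0.003 over all genes. The class medians were -1.07 for microfibrillar, -0.59 for fibrillar, -0.06 for FACIT and 0.19 for network chains.

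For each of the 13 called chains both KO lines lay beyond both WT lines, so leaving out 1 line could not change the direction. The calls were not kept. Without 1 line the limma fit had 1 residual degree of freedom, and the lone line was assumed to vary like the others. It then called 0 chains without KO line 2, WT line 5 or WT line 6. At an unadjusted p under 0.05, 13 of 42 chains were lower and 5 higher without KO line 2 (9.95% and 8.17% of all genes). Without WT line 5 they were 11 and 3 (13.5% and 11.1% of all genes), and without WT line 6 they were 14 and 5 (14.6% and 15.2%). Without KO line 4 limma called 5 chains, which were Col1a1, Col6a2 and Col8a2 (lower) and Col2a1 and Col10a1 (higher), against 1.29% lower and 0.478% higher of all genes. At an unadjusted p they were 16 and 6 (10.7% and 9.73% of all genes). Of the 11 chains that fell, 9 were lowest in KO line 2 and 9 were highest in WT line 5. The median absolute gap over the 42 chains was 0.188 between the KO lines and 0.141 between the WT lines, against 0.322 between the genotype means. These arrays measure a culture as a whole, so fewer cells of a type and less RNA per cell cannot be told apart.

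**Figure D1:**
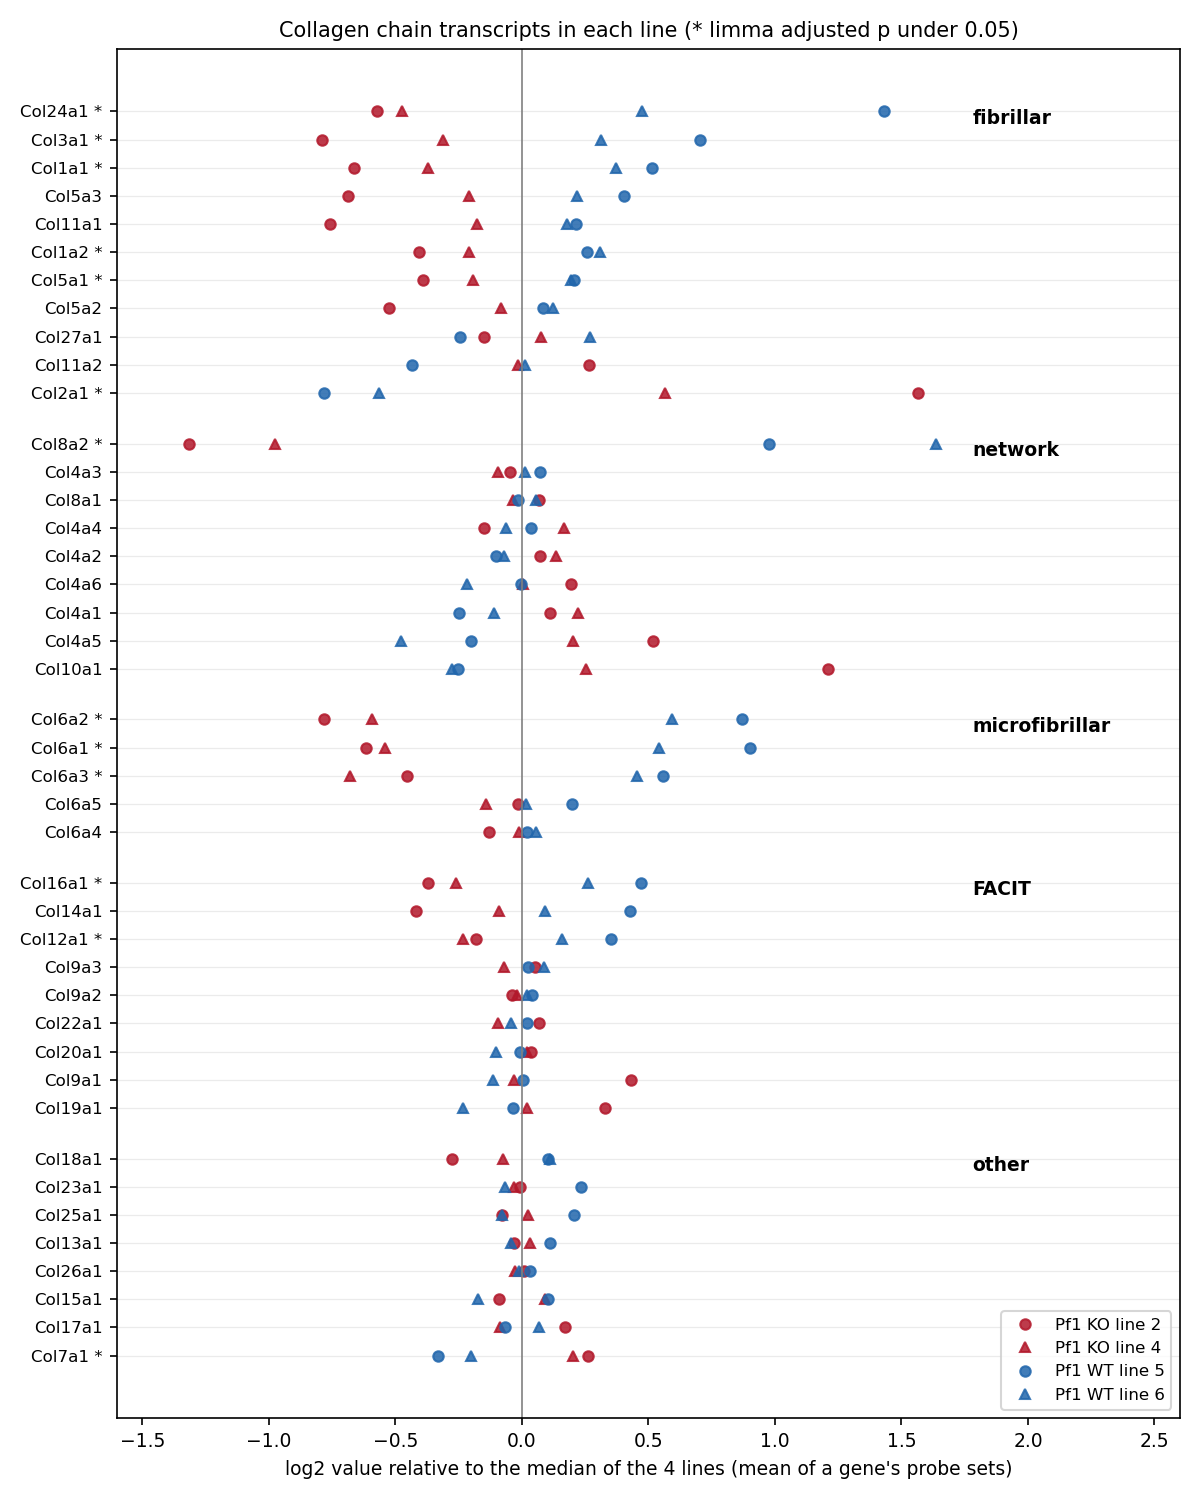
Log2 value of each of the 42 collagen chains (x axis, relative to the median of the 4 lines, mean of a gene's probe sets) in KO lines 2 and 4 (red) and WT lines 5 and 6 (blue), grouped by class, with an asterisk at a limma adjusted p under 0.05. Both red points lie left of both blue ones for 8 of 11 fibrillar and 5 of 5 microfibrillar chains, and right of them for 5 of 9 network chains. The other way, 1 fibrillar chain lies right and 2 network chains lie left. Over all genes both KO lines lie below both WT lines for 29.5% and above them for 28.7%.

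Microfibrillar collagens had the lowest class median. The Col6a1, Col6a2 and Col6a3 products assemble into 1 molecule in the microfibrils around fibroblasts. Col6a2 stood at -0.78 and -0.59 in KO lines 2 and 4, against 0.87 and 0.59 in WT lines 5 and 6, and fell 2.67-fold (log2 difference -1.42 ± 0.131 SE, n = 2 lines per genotype, limma adjusted p = 0.0142). Its probe sets gave -1.36 and -1.48, and both were called. Col6a1 stood at -0.62 and -0.54 in KO lines, against 0.90 and 0.54 in WT lines, and fell 2.46-fold (-1.30 ± 0.14, limma adjusted p = 0.016). Col6a3 stood at -0.46 and -0.68 in KO lines, against 0.56 and 0.46 in WT lines, and fell 2.10-fold (-1.07 ± 0.11, limma adjusted p = 0.0155). In each of these chains the genotypes were well apart, and KO line 4 was the lower KO line only for Col6a3.

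The gaps between these chains within a line were at most 0.35 in size. Col6a1 minus Col6a2 was 0.17 and 0.05 in KO lines 2 and 4, against 0.03 and -0.05 in WT lines 5 and 6. Col6a1 minus Col6a3 was -0.16 and 0.14 in KO lines, against 0.35 and 0.09 in WT lines. The unequal changes were not tested. The alternative chains Col6a5 and Col6a4, which can take the place of Col6a3 in the molecule, did not pass, and Col6a6 was not analysed here. Col6a5 stood at -0.01 and -0.14 in KO lines, against 0.20 and 0.01 in WT lines (-0.19 ± 0.106, limma adjusted p = 0.326). Col6a4 stood at -0.13 and -0.01 in KO lines, against 0.02 and 0.05 in WT lines (-0.11 ± 0.0879, limma adjusted p = 0.499). In both the KO lines lay below the WT lines by small margins. Microfibrillar chains called lower were 3 of 5 (60.0%, against 6.95% of all genes). Called higher were 0 of 5 (0 at an unadjusted p under 0.05), against 5.21% of all genes.

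The promoter windows of the type VI chains are shown because these chains moved together. Each window holds 250 bases before and 50 bases from a RefSeq start of the gene, and is credited to RefSeq (GRCm38.p6). Other RefSeq starts of a gene can lie elsewhere. Where several windows were given for a gene, that of the outermost start among them is shown. Capitals mark 3 motifs on either strand, namely the CCAAT box, the GC box spelled GGGCGG, and the TATA box spelled TATAAA.
Col6a1 promoter, GRCm38.p6 chr10:76725995-76726294, minus strand: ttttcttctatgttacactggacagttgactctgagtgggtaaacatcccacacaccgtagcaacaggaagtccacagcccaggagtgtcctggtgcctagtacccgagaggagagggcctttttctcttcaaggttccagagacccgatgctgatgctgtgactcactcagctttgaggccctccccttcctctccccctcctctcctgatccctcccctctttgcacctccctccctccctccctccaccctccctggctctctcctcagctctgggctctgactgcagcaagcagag
Col6a2 promoter, GRCm38.p6 chr10:76623581-76623880, minus strand: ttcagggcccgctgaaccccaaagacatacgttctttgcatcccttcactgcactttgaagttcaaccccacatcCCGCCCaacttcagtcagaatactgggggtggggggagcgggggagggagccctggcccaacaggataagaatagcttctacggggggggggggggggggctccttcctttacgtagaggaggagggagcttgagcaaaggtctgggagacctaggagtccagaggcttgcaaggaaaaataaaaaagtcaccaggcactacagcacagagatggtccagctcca
Col6a3 promoter, GRCm38.p6 chr1:90843922-90844221, minus strand: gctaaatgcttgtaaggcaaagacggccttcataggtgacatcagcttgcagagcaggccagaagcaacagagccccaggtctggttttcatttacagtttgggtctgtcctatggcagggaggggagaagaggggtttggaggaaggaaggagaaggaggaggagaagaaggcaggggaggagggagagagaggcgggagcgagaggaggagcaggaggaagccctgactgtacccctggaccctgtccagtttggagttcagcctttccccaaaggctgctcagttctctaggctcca
The Col6a1 and Col6a3 windows hold none of these letters, and the Col6a2 window holds 1 GC box, which begins at position -175 from the start. This says only that these letters are not in these windows.

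Fibrillar collagens were the next class. Of 11 chains, 5 fell (45.5%, against 6.95% of all genes), 1 rose (9.09%, against 5.21%) and 5 did not pass. The called decreases were of the chains that make up the interstitial fibrils of fibroblasts together with Col24a1. Type I collagen, the main fibril former, joins Col1a1 and Col1a2 chains. Col1a1 stood at -0.66 and -0.37 in KO lines 2 and 4, against 0.52 and 0.37 in WT lines 5 and 6, and fell 1.94-fold (-0.96 ± 0.129 SE, limma adjusted p = 0.0202). Col1a2 stood at -0.41 and -0.21 in KO lines, against 0.26 and 0.31 in WT lines, and fell 1.51-fold (-0.59 ± 0.102, limma adjusted p = 0.0313). Both chains were lowest in KO line 2, and the Col1a1 change was the larger. Col1a1 minus Col1a2 was -0.26 and -0.16 in KO lines, against 0.26 and 0.06 in WT lines, a shift of -0.37 that was not tested. It depends on the probe sets averaged: those of Col1a1 gave -1.07 and -0.85, and those of Col1a2 gave -0.84, -0.63 and -0.30, of which only the first was called.

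Col3a1, the chain of type III collagen in distensible tissues, stood at -0.79 and -0.31 in KO lines 2 and 4, against 0.70 and 0.31 in WT lines 5 and 6, and fell 2.08-fold (-1.06 ± 0.21 SE, limma adjusted p = 0.04). Its probe sets gave -1.41 and -0.70, and only the first was called. Type V collagen starts the growth of type I fibrils. Col5a1 stood at -0.39 and -0.19 in KO lines, against 0.21 and 0.20 in WT lines, and fell 1.41-fold (-0.49 ± 0.1, limma adjusted p = 0.042). Col5a2 and Col5a3, its partners, did not pass. Col5a2 stood at -0.53 and -0.08 in KO lines, against 0.08 and 0.12 in WT lines (-0.41 ± 0.161, limma adjusted p = 0.174). Col5a3 stood at -0.69 and -0.21 in KO lines, against 0.40 and 0.22 in WT lines (-0.76 ± 0.18, limma adjusted p = 0.0582). Both lay lower in KO lines without overlap, with KO line 2 far below KO line 4, and quantile normalization put Col5a3 past the threshold (-0.69, limma adjusted p = 0.0363).

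The Col1a2 promoter is printed because Col1a2 is a chain of the main fibril former. The capitals are as above.
Col1a2 promoter, GRCm38.p6 chr6:4505368-4505667, plus strand: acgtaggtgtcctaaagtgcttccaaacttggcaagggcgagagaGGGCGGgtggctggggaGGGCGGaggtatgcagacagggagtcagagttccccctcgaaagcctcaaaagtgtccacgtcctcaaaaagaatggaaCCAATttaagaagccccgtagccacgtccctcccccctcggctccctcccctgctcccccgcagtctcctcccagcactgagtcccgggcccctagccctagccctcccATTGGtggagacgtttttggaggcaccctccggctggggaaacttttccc
CCAAT begins at position -109 from the start, its reverse complement at position 1, and GC boxes at positions -205 and -188. Of the 10 promoter windows of 9 chains that fell, 2 held CCAAT, 6 held a GC box and 1 held TATAAA on either strand. Over all 36 windows of 33 measured chains the shares were 36.1%, 61.1% and 13.9%, against 37.4%, 35.7% and 13.6% of all 32851 windows in the table. These are counts of letters, not of bound sites.

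Col24a1, a minor fibrillar chain found in developing bone, was 2.78-fold lower in KO lines (-1.47 ± 0.313 SE, limma adjusted p = 0.0458). It stood at -0.57 and -0.47 in KO lines 2 and 4, against 1.43 and 0.47 in WT lines 5 and 6. WT line 5 was far above WT line 6, and the call was lost with robust variance moderation (limma adjusted p = 0.0548) and with the median of probe sets (0.0524), which left its difference as it was. Its 1 probe set did not pass in the fit over all probe sets (limma adjusted p = 0.0521). Col11a1, which joins type V and XI molecules, stood at -0.76 and -0.18 in KO lines, against 0.21 and 0.18 in WT lines, and did not pass (-0.66 ± 0.2, limma adjusted p = 0.0982). Both its probe sets gave near values, -0.70 and -0.63. Col11a2 (0.33) and Col27a1 (-0.05), chains of cartilage, did not pass either, and the genotypes overlapped in both.

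Col2a1, measured by 1 probe set, went against its class. It stood at 1.56 and 0.57 in KO lines 2 and 4, against -0.78 and -0.57 in WT lines 5 and 6, and rose 3.34-fold (1.74 ± 0.332 SE, limma adjusted p = 0.037). KO line 2 held the high end, and the difference was 1.24 without it and 2.24 without KO line 4. Col10a1, the chain of hypertrophic cartilage, was also highest in KO line 2, at 1.21 and 0.25 in KO lines 2 and 4, against -0.25 and -0.28 in WT lines (0.99 ± 0.312, limma adjusted p = 0.108). It passed without KO line 4 (1.47, limma adjusted p = 0.0322). The type IX chains, FACITs of cartilage fibrils, did not pass, with 0.25 for Col9a1, -0.06 for Col9a2 and -0.07 for Col9a3. The Col9a1 probe sets gave 0.54 and -0.03, neither called. Of 7 further cartilage markers 0 rose, also at an unadjusted p under 0.05, and Sox9, the transcription factor that activates Col2a1 in chondrocytes, fell. Sox9 stood at -0.32 and -0.21 in KO lines, against 0.24 and 0.26 in WT lines (-0.51 ± 0.085, limma adjusted p = 0.0285). Cartilage markers had a median difference of 0.004.

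**Figure D2:**
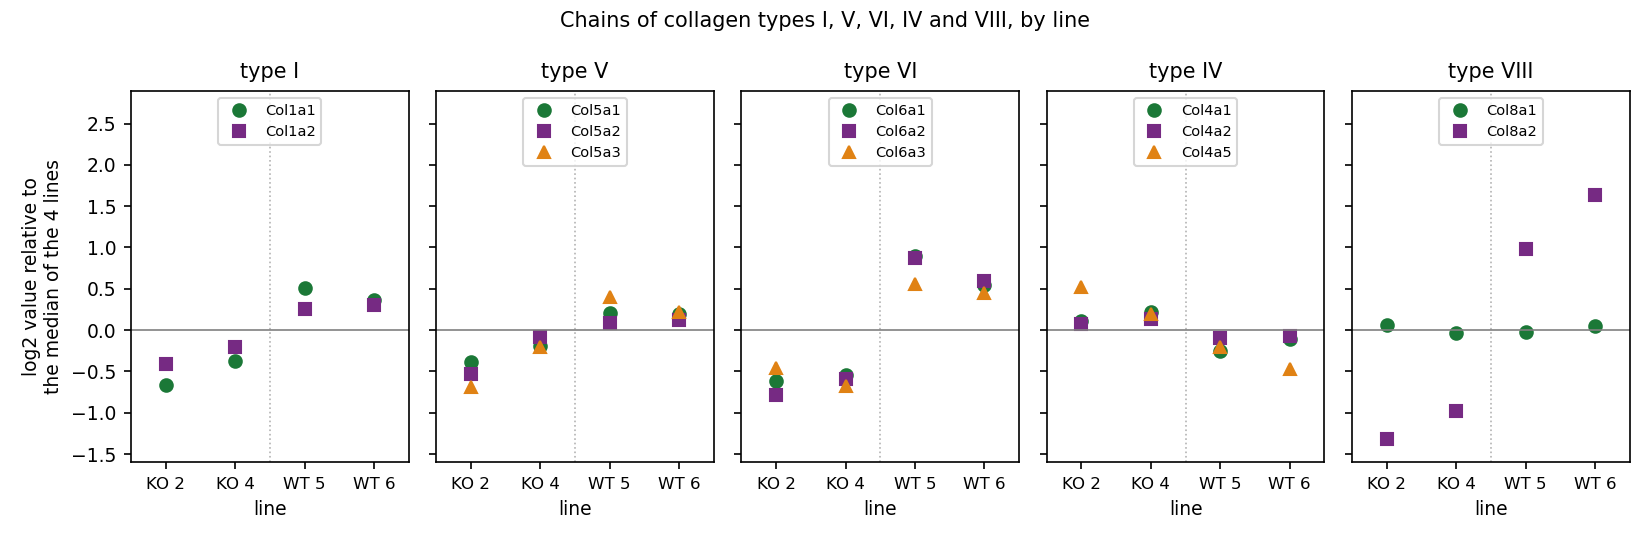
Log2 value (y axis, relative to the median of the 4 lines) of chains of types I, V, VI, IV and VIII in KO lines 2 and 4 and WT lines 5 and 6 (x axis), 1 point per line and chain. The type VI chains lie together at -0.46 to -0.78 in KO lines and at 0.46 to 0.90 in WT lines, while Col8a1 stays near 0 and Col8a2 spans -1.31 to 1.64.

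Among network collagens, 1 of 9 chains fell (11.1%, against 6.95% of all genes) and 0 rose (5.21% of all genes). At an unadjusted p under 0.05, 1 was lower and 3 were higher. The called chain, Col8a2, showed the largest difference of all 42. Type VIII is the hexagonal network of Descemet's membrane and of vessel walls, built from Col8a1 and Col8a2 chains. Col8a2 stood at -1.31 and -0.98 in KO lines 2 and 4, against 0.98 and 1.64 in WT lines 5 and 6, and fell 5.48-fold (-2.45 ± 0.246 SE, limma adjusted p = 0.0154). Its chain partner Col8a1 stood at 0.07 and -0.04 in KO lines, against -0.02 and 0.05 in WT lines (-0.003 ± 0.088, limma adjusted p = 0.989). The 3 probe sets of Col8a1 gave -0.17, -0.01 and 0.17, and Col8a2 had 1 probe set, so no second measurement of its decrease was available.

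The Col8a2 promoter is shown as that of the chain with the largest difference.
Col8a2 promoter, GRCm38.p6 chr4:126286544-126286843, plus strand: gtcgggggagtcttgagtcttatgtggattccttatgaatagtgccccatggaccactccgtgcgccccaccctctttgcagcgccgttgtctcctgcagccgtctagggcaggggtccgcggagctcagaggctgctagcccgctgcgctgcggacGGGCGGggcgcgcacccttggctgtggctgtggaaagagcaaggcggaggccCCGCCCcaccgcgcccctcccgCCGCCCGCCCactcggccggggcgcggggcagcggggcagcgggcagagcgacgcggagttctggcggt
GC boxes begin at positions -93, -41, -19 and -15 from the start, of which the last pair overlap.

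Type IV collagen, the basement membrane network, had 0 of 6 chains called (2 higher at an unadjusted p under 0.05). Over all genes 6.95% were called lower and 5.21% higher. Col4a1 and Col4a2 form its common molecule. Col4a1 stood at 0.11 and 0.22 in KO lines 2 and 4, against -0.25 and -0.11 in WT lines 5 and 6 (0.35 ± 0.0959 SE, limma adjusted p = 0.0821), with 0.30 and 0.39 in its probe sets. Col4a2 stood at 0.07 and 0.14 in KO lines, against -0.10 and -0.07 in WT lines (0.19 ± 0.0816, limma adjusted p = 0.208). Neither passed, though the KO lines lay above the WT lines in both. Col4a5 stood at 0.52 and 0.20 in KO lines, against -0.20 and -0.48 in WT lines (0.70 ± 0.154, limma adjusted p = 0.0501, probe sets 0.69 and 0.70). It passed with robust variance moderation (0.0436), without probe sets ending in _x_at or _s_at (0.049) and after array median centring (0.0479). Col4a5 and Col4a6 are X-linked, and WT line 6, the line with Xist, was lowest in both; without it the Col4a5 difference was 0.56. Col4a6, which pairs with Col4a5, stood at 0.19 and 0.004 in KO lines, against -0.002 and -0.22 in WT lines (0.21 ± 0.119, limma adjusted p = 0.329). Col4a3 and Col4a4 are chains of the kidney filter. Col4a3 stood at -0.05 and -0.09 in KO lines, against 0.07 and 0.01 in WT lines (-0.11 ± 0.0819, limma adjusted p = 0.44). Col4a4 stood at -0.15 and 0.17 in KO lines, against 0.04 and -0.06 in WT lines, and the genotypes overlapped (0.02 ± 0.131, limma adjusted p = 0.869).

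The window around the Col4a2 start is printed because Col4a1 and Col4a2 share a promoter and start on opposite strands.
Col4a2 promoter, GRCm38.p6 chr8:11312555-11312854, plus strand: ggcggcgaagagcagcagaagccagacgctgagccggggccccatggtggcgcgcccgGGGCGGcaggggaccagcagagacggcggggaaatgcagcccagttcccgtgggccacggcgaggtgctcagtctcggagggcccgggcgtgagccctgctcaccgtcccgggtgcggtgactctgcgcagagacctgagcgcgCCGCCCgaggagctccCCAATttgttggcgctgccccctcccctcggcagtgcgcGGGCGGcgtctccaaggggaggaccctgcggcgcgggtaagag
The Col4a1 window shares 78 bases with this one. The Col4a2 window holds CCAAT at position -32 from the Col4a2 start and GC boxes at positions -192, -48 and 8.

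FACITs with a called difference fell, and these were 2 of 9 chains (22.2%, against 6.95% of all genes). Called higher were 0 (0 at an unadjusted p under 0.05), against 5.21% of all genes. Col16a1 stood at -0.37 and -0.26 in KO lines 2 and 4, against 0.47 and 0.26 in WT lines 5 and 6, and fell 1.60-fold (-0.68 ± 0.109 SE, limma adjusted p = 0.0271). Col12a1, which decorates type I fibrils, stood at -0.18 and -0.23 in KO lines, against 0.35 and 0.16 in WT lines, and fell 1.38-fold (-0.46 ± 0.1, limma adjusted p = 0.0485). Its 4 probe sets disagreed. A pair of them (-0.93 ± 0.177 and -0.72 ± 0.143, limma adjusted p = 0.0418 and 0.0469 over all probe sets) were called, and the others (-0.22 and 0.02) were not. The mean is thus smaller than the change in the called pair. Col14a1, a FACIT of tendon and skin, stood at -0.42 and -0.09 in KO lines, against 0.43 and 0.09 in WT lines, and did not pass (-0.51 ± 0.168, limma adjusted p = 0.117). Col19a1 (0.31) did not pass, and its 3 probe sets gave 0.66, 0.25 and 0.02.

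Col7a1 rose 1.41-fold (0.50 ± 0.0899 SE, limma adjusted p = 0.0334). It stood at 0.26 and 0.20 in KO lines 2 and 4, against -0.33 and -0.20 in WT lines 5 and 6, with both KO lines above both WT lines. Of the 8 chains outside the main classes it was the one called (12.5% higher, against 5.21% of all genes). Against 6.95% of all genes, 0 of the 8 fell (1 at an unadjusted p under 0.05). That one was Col18a1, the endostatin precursor of basement membranes, named here after its value was seen. It stood at -0.28 and -0.07 in KO lines, against 0.10 and 0.11 in WT lines (-0.28 ± 0.101, limma adjusted p = 0.142). The other chains with small differences were Col4a3, Col4a4, Col6a4, Col8a1, Col9a2, Col9a3, Col13a1, Col15a1, Col17a1, Col20a1, Col22a1, Col23a1, Col25a1, Col26a1 and Col27a1. These 15 lay between -0.11 and 0.08, and without signal levels an unexpressed chain would look the same. A mean near 0 can also hide probe sets that disagree, as in Col9a3 (-0.38, 0.07 and 0.11, not called). Col21a1 and Col28a1 were not analysed here.

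**Figure D3:**
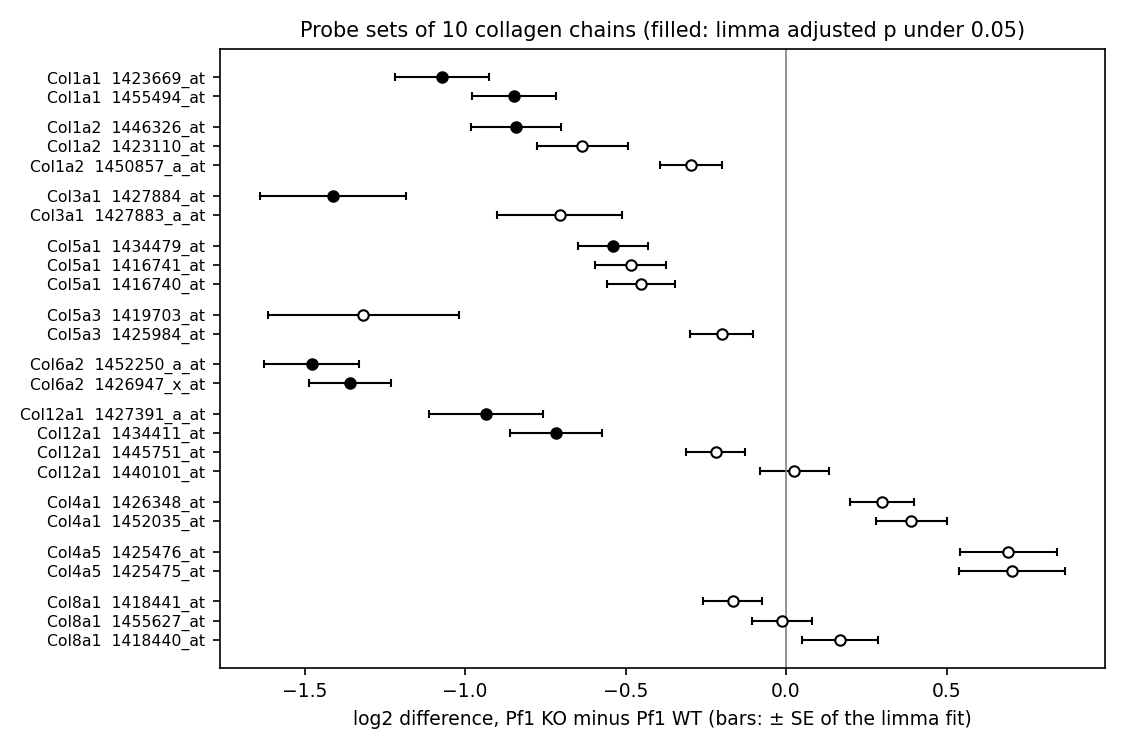
Log2 difference, KO minus WT (x axis, bars ± SE of the limma fit), for each probe set of 10 chains, filled at a limma adjusted p under 0.05 over all probe sets. The Col1a1 and Col6a2 probe sets lie close together and all are called, whereas Col12a1 probe sets run from -0.93 to 0.02.

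Over probe sets, 13 of 82 were called lower and 2 higher, against 4.4% lower and 3.92% higher of all probe sets. Of the 27 chains with several probe sets, 18 had all of them on 1 side of 0. The called chains Col2a1, Col6a1, Col6a3, Col7a1, Col8a2, Col16a1 and Col24a1 had 1 probe set each, so no second measurement of their differences was available. The largest spread among the chains that did not pass was that of Col5a3, with -1.32 and -0.20.

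Genes that make, cut, bind and degrade collagen were then examined in 6 lists. Together 15 of 73 fell and 4 rose (20.5% and 5.48%, against 6.95% and 5.21% of all genes), with a median difference of -0.22. In the list of chain modification and folding, 6 of 20 fell and 0 rose (1 at an unadjusted p under 0.05), with a median difference of -0.41. P3h3, a prolyl 3-hydroxylase family member, stood at -0.51 and -0.43 in KO lines 2 and 4, against 0.50 and 0.43 in WT lines 5 and 6 (-0.94 ± 0.085 SE, limma adjusted p = 0.0137). P4ha2, a catalytic subunit of the prolyl 4-hydroxylase that stabilises the helix, fell as well (-0.88 ± 0.122, limma adjusted p = 0.0214). Crtap, the partner of prolyl 3-hydroxylase, gave -0.51 (limma adjusted p = 0.0319) and Plod1, a lysyl hydroxylase, -0.54 (limma adjusted p = 0.0337). P4ha1 (-0.55) and the vesicle coat gene Sec24d (-0.42) completed the called members. Serpinh1, the collagen chaperone Hsp47, did not pass and stood at -0.02 and -0.03 in KO lines, against 0.18 and 0.01 in WT lines (-0.12 ± 0.0951, limma adjusted p = 0.471); it was named after its value was seen.

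Propeptide cleavage and cross-linking genes went both ways, with a median difference of -0.13. Of 10 genes, 3 were lower (30.0%, against 6.95% of all genes) and 2 higher (20.0%, against 5.21%). Loxl3 (-1.41 ± 0.0802 SE, limma adjusted p = 0.0103) and Lox (-0.64 ± 0.102, limma adjusted p = 0.0272), lysyl oxidases that cross-link chains, fell. So did Adamts3, a procollagen N-proteinase, at -0.37 and -0.40 in KO lines 2 and 4, against 0.63 and 0.38 in WT lines 5 and 6 (-0.89 ± 0.111, limma adjusted p = 0.0184). Pcolce2, an enhancer of procollagen C-proteinase, rose and stood at 0.97 and 0.79 in KO lines, against -1.70 and -0.79 in WT lines (2.13 ± 0.302, limma adjusted p = 0.0219). Tll1, such a C-proteinase, rose by 0.90 (± 0.162, limma adjusted p = 0.033), while Bmp1, the main one, did not pass (0.16).

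Of 9 genes for collagen receptors and uptake, Mrc2, the endocytic collagen receptor, fell (11.1%, against 6.95% of all genes). It stood at -0.35 and -0.20 in KO lines 2 and 4, against 0.21 and 0.28 in WT lines 5 and 6 (-0.52 ± 0.0955 SE, limma adjusted p = 0.0343). The other 8 did not pass, and the list median was 0.08. Among 14 fibril-binding matrix proteins, 2 fell and 1 rose (14.3% and 7.14%, against 6.95% and 5.21% of all genes). Aspn, a small leucine-rich proteoglycan, fell (-1.78 ± 0.144, limma adjusted p = 0.0122). Lum, another of that family that binds fibrils, stood at -2.39 and -1.01 in KO lines, against 2.25 and 1.01 in WT lines, and was 10.03-fold lower (-3.33 ± 0.591, limma adjusted p = 0.0325). Fn1, fibronectin, rose (0.50 ± 0.0814, limma adjusted p = 0.0274). Lum lost its call with robust variance moderation (limma adjusted p = 0.0612). Of 7 collagen-degrading enzymes, 2 fell (28.6%, against 6.95% of all genes) and 0 rose (5.21% of all genes). Ctsk, the protease cathepsin K, fell and stood at -0.74 and -0.81 in KO lines, against 0.79 and 0.74 in WT lines (-1.53 ± 0.0834, limma adjusted p = 0.0103). Mmp9, a gelatinase, gave -0.79 (limma adjusted p = 0.0449), which missed the threshold with array weights (0.0515) and with the median of probe sets (0.0503). Of 13 factors acting on collagen genes, Sox9 fell and Tgfb2, a growth factor that raises matrix synthesis, rose. These are 7.69% each, against 6.95% and 5.21% of all genes, and the other 11 did not pass. Tgfb2 stood at 0.77 and 0.39 in KO lines, against -0.80 and -0.39 in WT lines (1.17 ± 0.194, limma adjusted p = 0.0285).

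**Figure D4:**
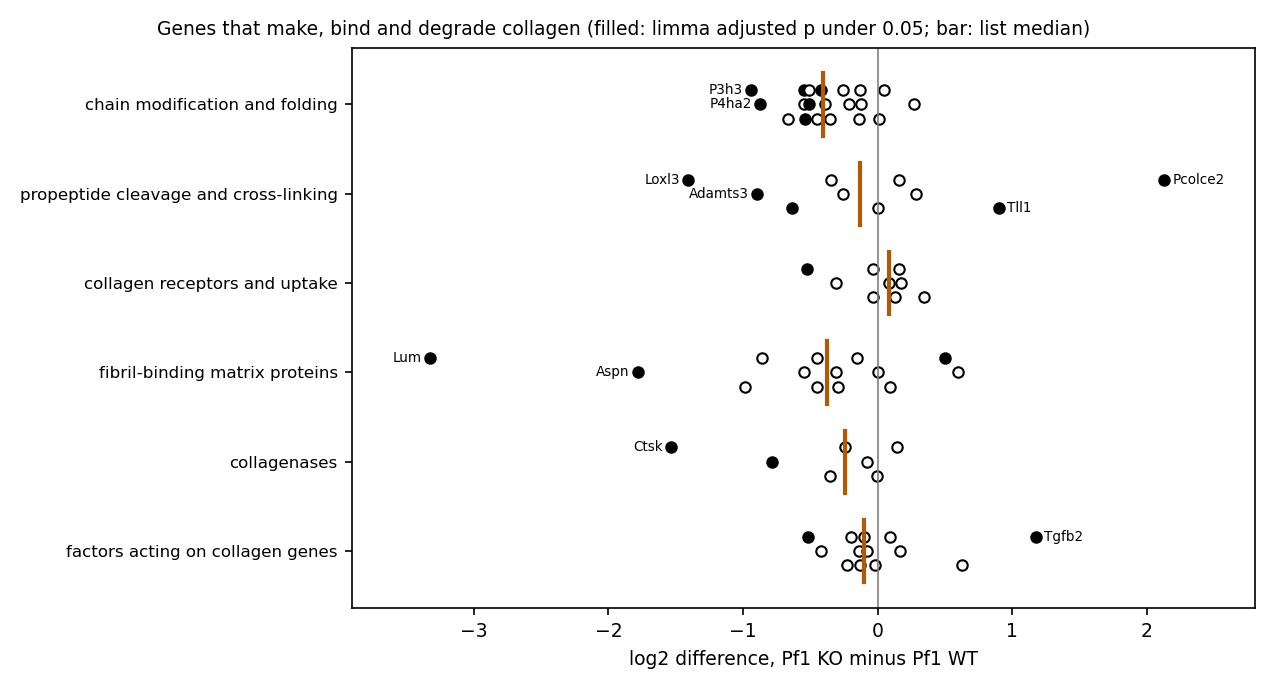
Log2 difference, KO minus WT (x axis), of each gene in 6 lists of collagen-related genes (rows), filled at a limma adjusted p under 0.05, with the list median as a bar. Chain modification genes lie mostly left of 0 (17 of 20), and the list of cleavage and cross-linking runs from -1.41 to 2.13.

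Some lists of cell type markers moved with genotype beside these chains, and others did not. Of 9 fibroblast markers, 4 fell and 0 rose (0 at an unadjusted p under 0.05), with median values relative to the WT mean of -0.46 and -0.57 in KO lines 2 and 4, against 0.09 and -0.09 in WT lines 5 and 6. The called members included Pdgfra (-2.17 ± 0.418 SE, limma adjusted p = 0.0375), the growth factor receptor of mesenchymal cells, and Twist2 (-1.09 ± 0.117, limma adjusted p = 0.016), a mesenchymal transcription factor. Of 9 smooth muscle and myofibroblast markers, 8 rose, with medians of 0.81 and 0.85 in KO lines, against -0.07 and 0.07 in WT lines. Of 7 epithelial markers, 2 rose and 0 fell (4 higher at an unadjusted p under 0.05). Their medians were 0.18 and 0.28 in KO lines, against -0.04 and 0.04 in WT lines. The called members were Krt8 (2.42 ± 0.21 SE, limma adjusted p = 0.0132) and Cldn4 (1.66 ± 0.292, limma adjusted p = 0.0319). These marker counts are to be read against 6.95% lower and 5.21% higher of all genes. Macrophage markers did not separate by genotype, at 0.07 and 0.79 in KO lines, against 0.85 and -0.85 in WT lines. Endothelial markers had 1 lower (Tek) and 1 higher (Emcn) of 7. Markers of bone (5 measured), skeletal muscle (7) and Schwann cells (5) had 0 called by limma, with 1 bone marker higher and 1 Schwann marker lower at an unadjusted p under 0.05. The part of these markers in the collagen differences was not tested.

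**Figure D5:**
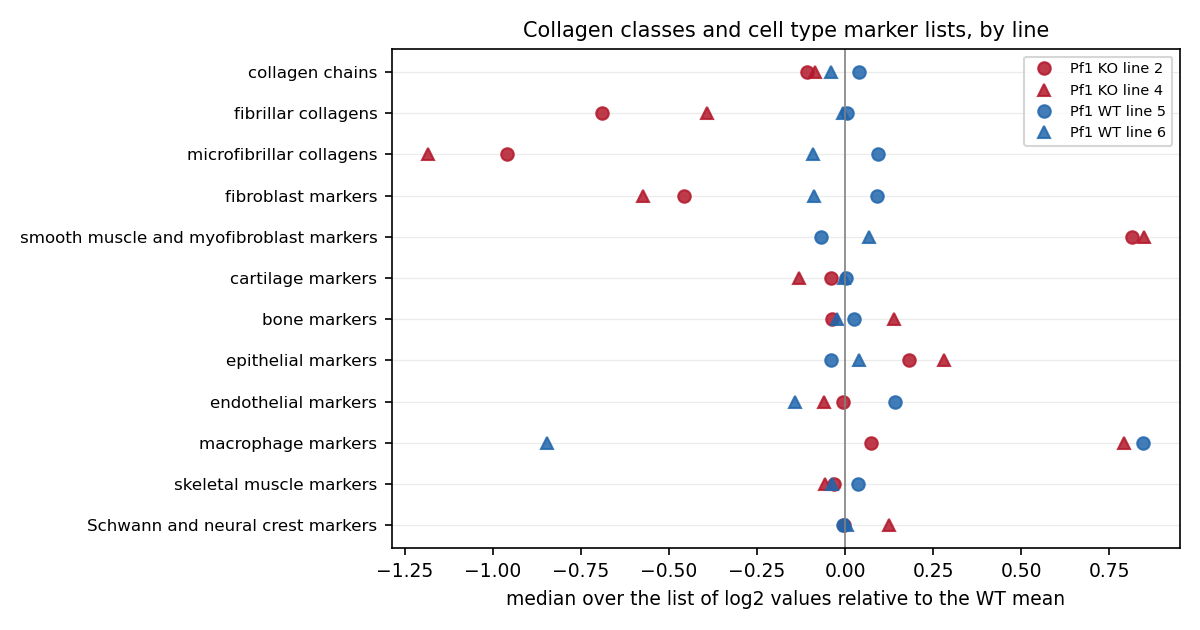
Median over each list of log2 values relative to the WT mean (x axis) in KO lines 2 and 4 (red) and WT lines 5 and 6 (blue), for all collagen chains, the fibrillar and microfibrillar ones, and 9 cell type marker lists (rows). Fibroblast markers lie lower and smooth muscle markers higher in KO lines, and WT line 6 stands at -0.85 for macrophage markers.

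Likeness to the collagen pattern was measured as the Euclidean distance between values in the 4 lines, relative to the WT mean. The mean of the 6 called fibrillar chains, which includes Col2a1, had values of -0.49 and -0.45 in KO lines 2 and 4, against 0.10 and -0.10 in WT lines 5 and 6. The nearest other genes were B3galt4, Nfatc4, Ngly1, Sema5a and Acadm, at distances of 0.0118 to 0.0506. Without Col2a1, a choice made after its rise was seen, the mean of the 5 chains was -1.04 and -0.79 in KO lines, against 0.15 and -0.15 in WT lines. Il13ra1, Fcgrt, Man2a1, Ugcg and Mthfd1l were then nearest (distances of 0.0477 to 0.0737).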

How the data were processed

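RNA of 4 fibroblast lines was measured on 1 biotin-labelled Affymetrix array each. The deposited values are log2 signals that the authors made with Affymetrix Expression Console and RMA, per the submitters' processing notes; no versions are named, and the log base was taken from the RMA method. Each probe set's median over the 4 arrays is 0 within 1e-06, a centring that the labels do not describe. The array medians were 0.00253 and 0 (KO lines 2 and 4) and 0.00455 and -0.00871 (WT lines 5 and 6). The precision is limited by the number of arrays. GEO's platform annotation named 1 gene for 34945 of the 45101 probe sets, several for 932 and none for 9160, and 64 were controls. The gene fit used the first kind, and the probe set fit left out controls only. Of the 34945, 34741 matched a RefSeq gene (GRCm38.p6), which changed 0 symbols, and 33 of 42 chains had a promoter there. The series text names the 430A 2.0 array, while the table holds more probe sets and matches the annotation of a larger array.

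Probe sets of a gene were averaged, and KO minus WT was fitted over 18193 genes, and over 45037 probe sets, by limma (version 3.58.1, functions lmFit and eBayes, R 4.3.3) with genotype as the one term (2 residual and 3.04 prior degrees of freedom). P-values were adjusted by Benjamini-Hochberg over all genes or all probe sets, and called under 0.05. Passage and embryonic day are not assigned to lines and cannot be told apart from genotype if they differ. The members and lists were chosen with earlier results of these data known, so no list was tested. Named were all chains, with values by line for called chains, types I, III, IV, V and VI and the largest difference of a class, and up to 4 called members of a related list with the smallest p; Tll1, P4ha1, Sec24d, Bmp1, Serpinh1, Col9a1 to Col9a3 and the marker genes were picked with their values known. Alternatives were the median of probe sets, no _x_at or _s_at probe sets, quantile normalization, array median centring, array weights, robust moderation and leaving out each line.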

Additional observations from a re-analysis of the deposited data

How the results depend on the processing

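The 13 called chains kept their direction under all 10 alternatives run. Because the genotypes did not overlap in them, leaving out 1 line, array weights and robust moderation could not change it. Under each of the 6 alternatives that used all 4 lines, 12 or 13 of these chains kept their call, and Col24a1 was the one lost. Array weights left 1 collagen probe set called higher, against 2. Leaving out 1 line at a time gave 0 to 3 chains called lower (11 with all lines) and 0 to 2 higher (2), 0 and 0 collagen probe sets lower and higher (13 and 2), 0 to 5 related genes lower (15) and 0 higher (4), and 0 to 234 of all genes lower (1265) and 0 to 87 higher (947), by limma with 1 residual degree of freedom, so fewer lines are part of this. The median difference over the chains ran from -0.107 to -0.067 without 1 line (-0.08 with all). The Col8a1 difference, near 0, turned to 0.049 without KO line 4 and 0.032 without WT line 6, within a range of -0.056 to 0.049. Over 38 named genes, the 6 settings with all lines gave 228 values, of which 219 kept direction and side of the threshold, 5 lost and 4 gained a call. No paired analysis was possible because KO and WT lines share no number. A filter on dim probe sets was not run, since centred values hold no signal level; signal over background is unknown for every chain.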

Other observations

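Some collagen genes lie next to each other, and neighbours did not always move alike. Among protein-coding genes of GRCm38.p6, 7 pairs of measured chains were direct neighbours. Col6a2 and Col6a1 on chromosome 10 both fell (-1.42 and -1.30). Col3a1 and Col5a2 on chromosome 1 gave -1.06 (called) and -0.41 (not called), and Col3a1 minus Col5a2 was -0.26 and -0.23 in KO lines 2 and 4, against 0.62 and 0.19 in WT lines 5 and 6. Col4a1 and Col4a2 on chromosome 8 gave 0.35 and 0.19, and Col4a6 and Col4a5 on chromosome X gave 0.21 and 0.70, none called. Col9a1 and Col19a1 on chromosome 1 gave 0.25 and 0.31, each highest in KO line 2 (0.43 and 0.33). The Col9a1 probe sets disagreed, with 0.54 and -0.03, and the second was highest in WT line 5 (0.16, against 0.13 in KO line 2). Col4a4 and Col4a3 (0.02 and -0.11) and Col6a5 and Col6a4 (-0.19 and -0.11) were not called. Whether neighbours are more alike than other chains was not tested.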
